A study of Sus scrofa with 21 samples.

Results

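The mural cell genes PDGFRB, RGS5, CSPG4, NOTCH3, ITGA7, WFDC1 and FIBIN were followed in RNA sequencing libraries from 3 pigs (Sus scrofa). These 7 genes, of 24358 in the table, were chosen by their measured microbrush over wire difference, the strongest among mural genes, with markers of pericytes added. The microbrush and wire libraries therefore took part in the choice, and the difference between them is given as a description with no test. All 7 were found by symbol.

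The 3D-printed microbrush, an endovascular device for sampling endothelial cells, gave 10 libraries from peripheral arteries, 5 of the kidney and 5 of the liver. The negative control was a Nitinol wire with no brush, with 2 libraries from each organ. The positive control was aorta taken by surgery, with 4 libraries, and 3 more libraries held whole blood. The microbrush and wire libraries came from pigs 243K and 248K, with 5 microbrush and 2 wire libraries from each. Blood came from the same pigs (1 and 2 from 243K, 3 from 248K), and the aorta was that of pig 237053 in every library, so libraries are not separate animals and p-values measure the spread between libraries. No treatment, strain, age or sex was among the labels used here. Total counts ran from 1144932 to 10188552 on the microbrush, from 1946286 to 11128400 on the wire and from 1603229 to 3033008 in aorta. Blood 2 held 5634 counts with none for the 7 genes, which allows a share of up to 0.0532%, so it was left out of the levels and tests. The other blood libraries held 5301288 and 3224540 counts. Microbrush 4 had counts for 3831 genes and microbrush 6 for 12653, whereas the other microbrush libraries had between 15023 and 20001.

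Mural cells are the smooth muscle cells and pericytes that wrap the endothelial tube of a vessel. Endothelial cells release PDGF-B, which binds the receptor PDGFRB on mural cells and their precursors and brings them to the vessel. Notch ligands on endothelial and smooth muscle cells act on NOTCH3, which keeps arterial smooth muscle in its mature state. Pericytes of small vessels share PDGFRB, RGS5, CSPG4 and NOTCH3 with smooth muscle of larger arteries, so these genes mark mural cells as a whole. In bulk libraries, fewer mural cells and less mural RNA per cell cannot be told apart.

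The receptors and the signalling gene come first, as levels in counts per 1000000 after TMM scaling over 20 libraries (CPM). TMM factors ran from 0.339 in microbrush 6 to 2.064 in microbrush 3. The counts of libraries above other libraries hold for this scaling, and some change without it. PDGFRB (ENSSSCG00000022741) lies on chromosome 2 from 151155753 to 151192818 in Sscrofa11.1. PDGFRB had a lowest value of 0, a median of 61.3 and a highest value of 348.1 CPM in the 10 microbrush libraries, against 0.508, 0, 0 and 5.06 CPM in wires 1 to 4. In aorta it had 98.3, 90.2, 110.7 and 157.0 CPM and in blood 4.56 and 4.31 CPM. Of the 10 microbrush libraries, 9 lay above every wire library, and microbrush 4, at 0, lay among the wires. Of them 2 lay above every aorta library. The wire values rested on 2, 0, 0 and 10 reads. Its microbrush minus wire difference was 4.53 on the log2(CPM + 1) scale, with means of 5.33 ± 2.55 (SD, n = 10) and 0.80 ± 1.23 (n = 4).

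NOTCH3 (ENSSSCG00000025176), the Notch receptor of mural cells, lies on chromosome 2 from 62364507 to 62402348. NOTCH3 had a lowest value of 0, a median of 266.8 and a highest value of 1359 CPM on the microbrush, against 106.4, 1.69, 3.44 and 45.0 CPM on wires 1 to 4. In aorta it had 118.6, 117.9, 108.7 and 200 CPM, and in blood 18.2 and 47.2 CPM. Wire 1 came close to the lowest aorta library, and 6 of 10 microbrush libraries lay above every wire. For this gene 5 microbrush libraries also stood above every aorta library. Its blood levels were above those of wires 2 and 3, and its microbrush minus wire difference was 3.31 (log2(CPM + 1)).

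RGS5 (ENSSSCG00000037821, chromosome 4 from 87286953 to 87340816) encodes a regulator of G protein signalling that damps the response of mural cells to contractile signals. RGS5 had a lowest value of 0, a median of 214.5 and a highest value of 1679 CPM on the microbrush, against 57.4, 2.95, 1.59 and 25.8 CPM on wires 1 to 4. Aorta 1 to 4 had 995.1, 1013, 474.1 and 2437 CPM, and blood had 5.18 and 20.5 CPM. Aorta 4 lay above every microbrush library, the sole case among the 7 genes where none exceeded every aorta library, and 6 of 10 microbrush libraries lay above every wire. The mean was 3.31 lower on the microbrush than in aorta on the log2(CPM + 1) scale, and 3.22 higher than on the wire.

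CSPG4 and ITGA7 act at the cell surface toward the matrix. CSPG4 (ENSSSCG00000001873, chromosome 7 from 57949182 to 57988602) is the NG2 proteoglycan of pericytes. CSPG4 had a lowest value of 0, a median of 164.7 and a highest value of 1008 CPM on the microbrush, against 39.1, 47.7, 0.529 and 14.7 CPM on wires 1 to 4. Aorta 1 to 4 had 285.8, 176.1, 325.6 and 468.5 CPM, and blood had 7.04 and 18.7 CPM. Wire 2 held its highest wire level, although wire 2 had 1.69 CPM of NOTCH3 and no PDGFRB. Of the microbrush libraries 7 lay above every wire and 3 above every aorta library. The microbrush minus wire difference was 2.82 (log2(CPM + 1)), the smallest of the 7.

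ITGA7 (ENSSSCG00000036237, chromosome 5 from 21126565 to 21150875) is an integrin alpha chain that pairs with ITGB1 to bind laminin in muscle. ITGA7 had a lowest value of 0, a median of 58.9 and a highest value of 530.5 CPM on the microbrush, against 1.52, 3.8, 0 and 0.506 CPM on wires 1 to 4. In aorta it had 120, 105.5, 160.3 and 231.9 CPM, and in blood 0.622 and 1.23 CPM. The wire and blood levels thus overlapped near the level of a few reads, and 7 of 10 microbrush libraries lay above every wire, and 2 of them above every aorta library. Its partner ITGB1, a chain of many cell types, averaged 1286 ± 1593 CPM on the microbrush over 10 libraries and 1533 ± 1830 CPM on the wire over 4 libraries (SD).

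WFDC1 and FIBIN encode secreted proteins. WFDC1 (ENSSSCG00000023837, chromosome 6 from 4333729 to 4365122) carries a WAP four-disulfide core, a fold of protease inhibitors. WFDC1 had a lowest value of 0, a median of 15.5 and a highest value of 91.8 CPM on the microbrush, against 0, 0, 0 and 0.506 CPM on wires 1 to 4. In aorta it had 20.3, 16.4, 20.9 and 41.7 CPM, and in blood 0.414 and 1.23 CPM. Of the microbrush libraries 9 lay above every wire and 4 above every aorta library. The wire value rested on 1 read over all 4 libraries, against 1261 reads over the 10 microbrush libraries.

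FIBIN (ENSSSCG00000022592, chromosome 2 from 33328250 to 33331752) is named after its part in fin bud initiation in zebrafish. FIBIN had a lowest value of 0, a median of 25.4 and a highest value of 126.7 CPM on the microbrush, against 0, 0, 0 and 1.01 CPM on wires 1 to 4. In aorta it had 13.3, 7.68, 11.4 and 15.7 CPM, and in blood 1.66 and 3.08 CPM. Of the microbrush libraries 8 lay above every wire, and 5 above every aorta library. Its sum was 1467 reads on the microbrush and 2 on the wire, both of them in wire 4.

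**Figure D1:**
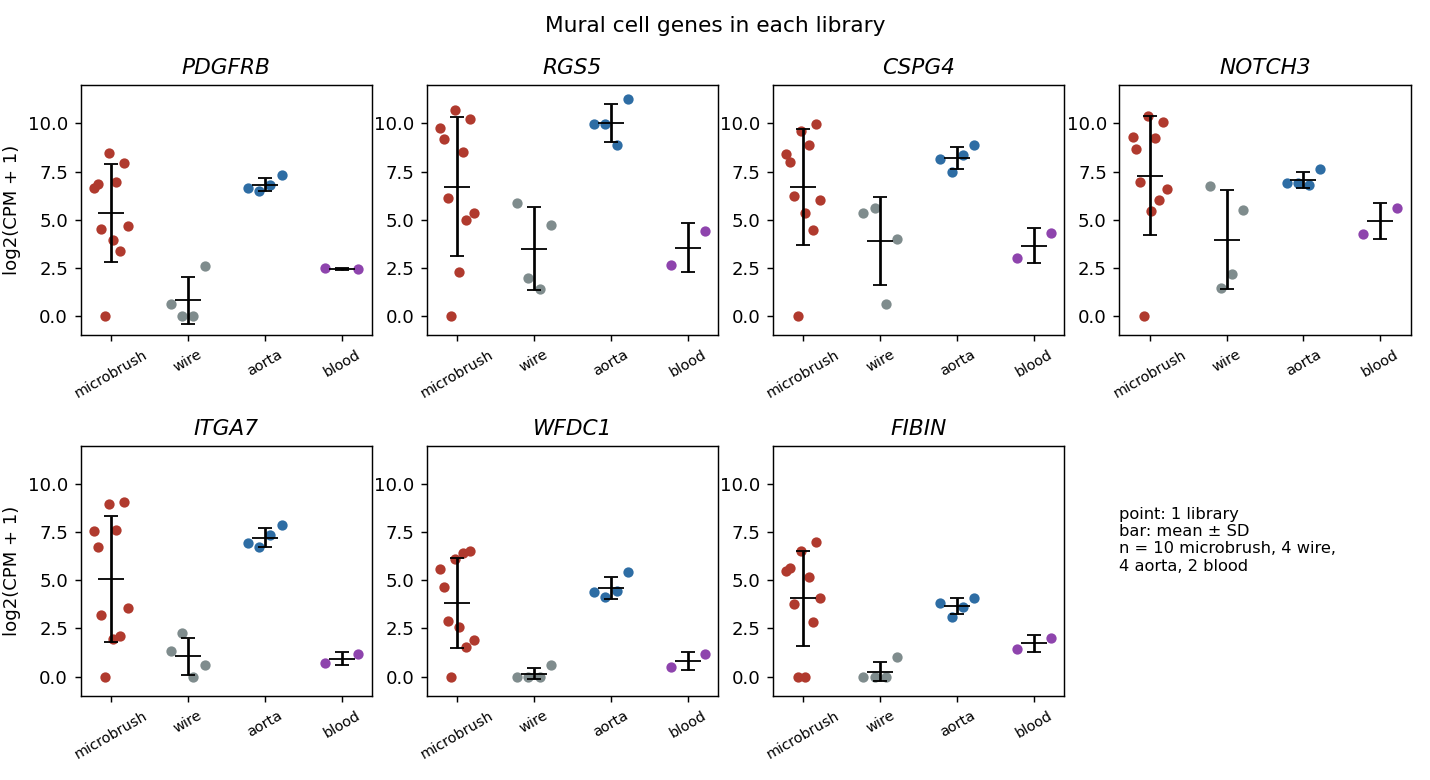
Level of each gene as log2(CPM + 1) (vertical axis) in the microbrush, wire, aorta and blood libraries (horizontal axis). Points are libraries and bars are the mean ± SD; the 4 aorta libraries lie closer to each other than the microbrush libraries do, while the 10 microbrush libraries spread from 0 in microbrush 4 to above every aorta library for all genes but RGS5.

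Set side by side, the microbrush minus wire differences had a median of 3.68 over the 7 genes, against 0.37 over 17986 genes with a mean of at least 1 CPM. By edgeR's fit the log2 fold change was 6.21 (SE 1.54) for PDGFRB, 4.45 (SE 1.52) for RGS5, 3.53 (SE 1.31) for CSPG4 and 3.46 (SE 1.33) for NOTCH3. It was 6.68 (SE 1.68) for ITGA7, 7.91 (SE 1.91) for WFDC1 and 7.30 (SE 1.84) for FIBIN, of which the last pair depends on the prior count added to near-empty wire libraries. In 0 of 7 genes did every microbrush library lie above every wire, as held for 0.0334% of 17986 genes. Microbrush 4 had none of the 7, and after TMM scaling other microbrush libraries also lay below the highest wire for RGS5, CSPG4, NOTCH3, ITGA7 and FIBIN. Every aorta library lay above every wire for 7 of 7 genes, as for 14.6% of 18201 genes. The wire libraries took part in the choice of the 7, so this too is only a description. Within pigs the median over the 7 genes was 3.47 (248K) and 4.06 (243K), and within organs 4.61 in kidney and 3.01 in liver. Other gene lists moved with this contrast, and their part in it was not tested. Among the 17 contractile genes 16 had a positive microbrush minus wire difference (median 2.94), among 13 fibroblast genes 12 (median 1.31) and among 20 wider pericyte and mural genes 15 (median 1.20). The difference was positive for 0 of 6 red cell genes (median -2.63) and 0 of 6 platelet genes (median -2.04). The 6 red cell genes summed to between 177.9 and 5203 CPM on the microbrush and between 2022 and 35850 CPM on the wire. The 6 platelet genes summed to between 35.7 and 14610 CPM on the microbrush and between 1947 and 13700 CPM on the wire. Endothelial genes mark the cells the device was made for. The 12 measured ones summed to between 295.0 and 3894 CPM on the microbrush (median 455). On the wire their sum ran from 362.6 to 1923 CPM (median 997.2), in aorta from 271 to 331.2 CPM and in blood from 243 to 263.1 CPM. Of these 12 genes 7 had a positive microbrush minus wire difference (median 0.29, against 0.37 over 17986 genes).

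Against aorta and blood the microbrush libraries are again described without a test because they took part in the choice of genes. The microbrush minus aorta difference (log2(CPM + 1)) was -1.49 for PDGFRB, -3.31 for RGS5, -1.52 for CSPG4, -2.13 for ITGA7 and -0.78 for WFDC1. It was 0.22 for NOTCH3 and 0.40 for FIBIN, each less than the SD of the microbrush libraries (3.09 and 2.48). With a pseudocount of 0.1 these last values were -0.11 and -0.21, and with RLE scaling -0.15 and 0.15. By edgeR's fit the log2 fold change over aorta was -0.18 for PDGFRB, -1.33 for RGS5, -0.03 for CSPG4 and 0.01 for ITGA7. It was 0.43 for WFDC1, 1.7 for NOTCH3 and 1.68 for FIBIN, with SE from 0.92 (PDGFRB) to 1.12 (FIBIN). For PDGFRB, CSPG4, ITGA7 and WFDC1 this change was smaller than its SE, and ITGA7 and WFDC1 took the other sign. No lower level than in aorta is therefore read for these genes. On the log2(CPM + 1) scale the median over the 7 genes was -1.49, against -0.62 over 18363 genes and -1.47 over the 17 contractile genes. Without microbrush 4 it was -0.78. Without microbrush 4 and 6 the median over the 7 genes was -0.52, and NOTCH3 and FIBIN had 1.35 and 1.41. Microbrush minus blood differences ran from 2.34 for FIBIN to 4.15 for ITGA7, with a median of 2.99 against -0.41 over 18051 genes. In 0 of 7 genes did every microbrush library lie above both blood libraries, as held for 0.831% of these 18051 genes. On the wire the median difference from blood was -0.68 (-0.79 over 17369 genes). RGS5, CSPG4 and ITGA7 differed from blood by -0.04, 0.22 and 0.12, and PDGFRB, FIBIN, NOTCH3 and WFDC1 by -1.64, -1.47, -0.97 and -0.68. These comparisons share libraries with each other.

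Within the microbrush the 7 genes varied together from library to library. Microbrush 1, 2, 5, 7 and 9 held the 5 highest levels of every one of the 7 genes, and microbrush 5 or 9 held the highest. Microbrush 3, 8 and 10 lay below them, for instance with 21.97, 9.16 and 24.2 CPM of PDGFRB. Microbrush 6 had 14.2 CPM of PDGFRB and 40.2 CPM of CSPG4 but 3.76 CPM of RGS5, 2.90 CPM of ITGA7 and no read of FIBIN among 10188552 counts. The 5 high libraries include both organs and both pigs, namely 3 of kidney and 2 of liver, and 3 of pig 243K and 2 of pig 248K. Their totals ran from 1721889 to 7532593 counts and their detected genes from 15023 to 20001, against 1144932 to 10188552 counts and 3831 to 19754 genes in the other 5. Across the 10 libraries the Pearson r of log2(CPM + 1) between pairs of the 7 genes ran from 0.846 to 0.991 over 21 pairs, as a description of libraries that share pigs and include microbrush 4 at 0 for all of them.

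**Figure D2:**
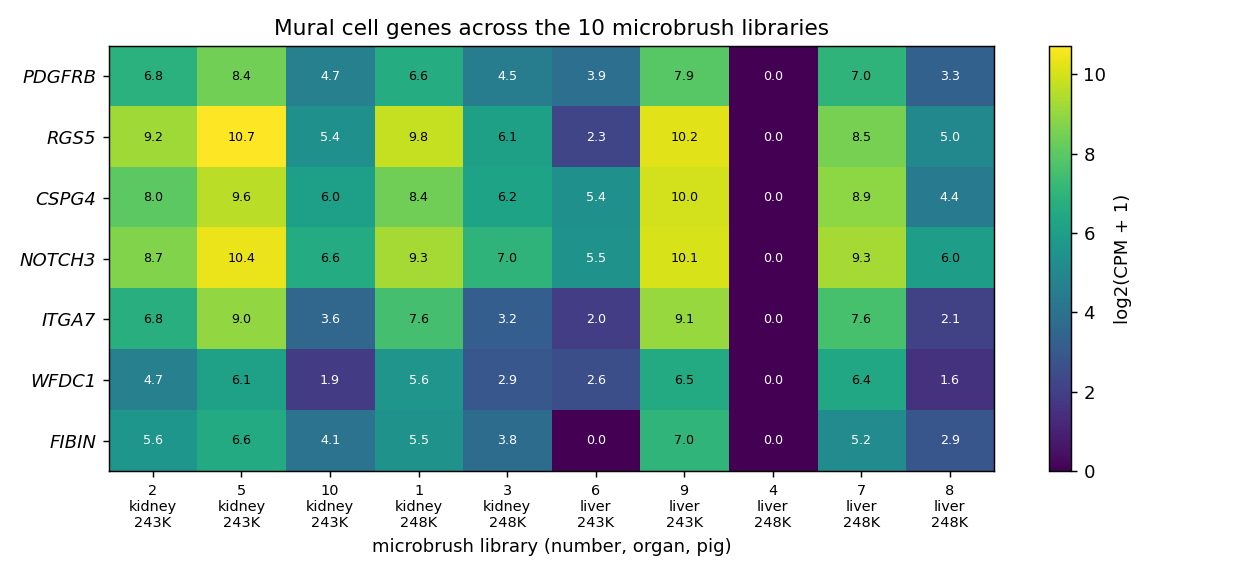
Heat map of log2(CPM + 1) for the 7 genes (rows) in the 10 microbrush libraries (columns, with number, organ and pig). Colour and printed values show that libraries 1, 2, 5, 7 and 9 are high for every gene and that library 4 is at 0 for all of them.

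Other cell types differed between the same libraries, and their part in the pattern was not tested. The 17 measured contractile genes of smooth muscle summed to between 27750 and 120600 CPM in the 5 high libraries. They summed to 4564, 6924 and 3655 CPM in microbrush 3, 8 and 10, and to 11160 and 41740 CPM in microbrush 4 and 6. MYH11, one of them, had 721.7 CPM in microbrush 6 against 15630 to 70090 CPM in the 5 high libraries. The 6 platelet genes summed to 4984 and 14610 CPM in microbrush 4 and 6 and to 35.7 and 187.7 CPM in microbrush 9 and 5. Microbrush 6 also held the highest endothelial sum, at 3894 CPM. Fibroblast genes summed to 67360 CPM in microbrush 9 and 24710 CPM in microbrush 5, and these also had the highest summed CPM of the 7 genes.

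Among 9516 other named genes with a mean of at least 10 CPM on the microbrush, those most like the mean of the 7 across the 10 microbrush libraries were ranked by Pearson r of log2(CPM + 1). MCAM, the CD146 adhesion molecule of mural and endothelial cells, came first with an r that rounds to 1, ahead of all 7 genes themselves (0.945 for FIBIN to 0.989 for PDGFRB). It had a median of 172.4 CPM (0 to 1164) on the microbrush and 63.2, 6.33, 0.794 and 4.05 CPM on wires 1 to 4. Next came ITIH5 (0.996), a member of the inter-alpha-trypsin inhibitor family, and LMOD1 (0.995), the leiomodin of smooth muscle thin filaments. SH3PXD2A, an adaptor of podosomes, and FADS3, of the fatty acid desaturase family, followed at 0.994 and 0.993. EMILIN1, a glycoprotein of elastic fibres, and RILPL1 had 0.991, and EFHD1 had 0.990. The actin-severing protein DSTN and the myosin phosphatase subunit PPP1R12B closed the ranking at 0.989. These r values rest on 10 libraries of 2 pigs and on the distance between microbrush 4 and the rest, and carry no test.

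The make-up of the summed counts is described here for microbrush and aorta, without a test. Within a library, the share of each gene in the summed counts of the 7 does not depend on scaling, and it was taken in libraries with at least 200 such counts. NOTCH3 made up 33.8% ± 7.47 of the sum on the microbrush (SD, n = 9, 24.9% to 46.8%) and 7.38% ± 1.39 in aorta (n = 4, 5.63% to 8.97%). A high share of NOTCH3 was not particular to the microbrush. It was 51.9% in wire 1 (807 counts) and 49.0% in blood 3 (469 counts), which also had at least 200 such counts. RGS5 made up 24.8% ± 11.6 on the microbrush (3.45% to 39.7%) and 58.6% ± 13.5 in aorta (39.1% to 68.6%), so the ranges met at their ends. FIBIN made up 2.98% ± 1.81 on the microbrush (0% to 6.17%) and 0.673% ± 0.239 in aorta (0.443% to 0.942%), with overlapping ranges. PDGFRB (7.50% ± 2.47 and 6.35% ± 1.99), CSPG4 (21.97% ± 7.08 and 17.2% ± 6.87) and ITGA7 (6.72% ± 3.85 and 8.49% ± 3.18) had overlapping shares. WFDC1 made up 2.31% ± 1.29 on the microbrush and 1.30% ± 0.289 in aorta.

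**Figure D3:**
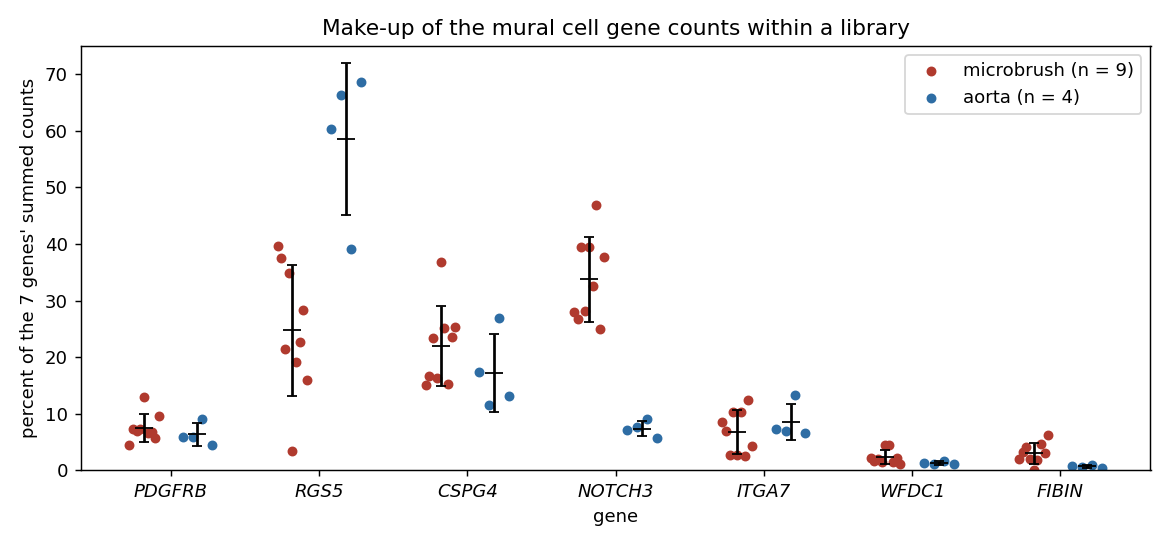
Share of each gene (horizontal axis) in the summed counts of the 7 genes within a library, in percent (vertical axis), for microbrush (left of each pair) and aorta libraries with at least 200 such counts. Points are libraries and bars the mean ± SD; NOTCH3 lies between 24.9% and 46.8% on the microbrush and between 5.63% and 8.97% in aorta.

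The count ratio of NOTCH3 to RGS5, chosen after the values were seen, gives this library by library. The ratio had a lowest value of 0.706, a median of 1.70 and a highest value of 11.5 in the 9 microbrush libraries with at least 10 reads of each gene, against 0.119, 0.116, 0.229 and 0.0821 in aorta 1 to 4. It was 1.85 and 1.75 in wires 1 and 4 and 3.52 and 2.30 in blood 1 and 3. Every one of these microbrush, wire and blood libraries thus lay above every aorta library. The mean log2 ratio was 0.66 ± 1.28 on the microbrush (SD, n = 9) and -2.98 ± 0.619 in aorta (n = 4), a difference of 3.64. All aorta libraries came from pig 237053, so pig, vessel and way of sampling cannot be told apart here.

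The genes were also set against MYH11, the smooth muscle myosin heavy chain, in the same library. The count ratio of ITGA7 to MYH11 had a median of 0.00614 on the microbrush (0.00349 to 0.00797, 8 libraries with at least 10 reads of ITGA7) and 0.00647 in aorta (0.00547 to 0.00708, 4 libraries). That of NOTCH3 to MYH11 had a median of 0.0262 on the microbrush (0.016 to 0.0979, n = 9) and 0.00571 in aorta (0.0048 to 0.00667). That of FIBIN had a median of 0.00244 on the microbrush (0.00112 to 0.00964, n = 8) and 0.000461 in aorta (0.000398 to 0.000748). A library with fewer than 10 reads of a gene gave no ratio, as microbrush 4 for all 7 genes and microbrush 6 for FIBIN, each with 0 reads. These ranges therefore leave out the lowest microbrush values, and no separation from aorta is read from them. For RGS5 the medians stood the other way, with 0.024 on the microbrush (0.00521 to 0.0475, n = 9) and 0.0542 in aorta (0.0209 to 0.0652), and the ranges overlapped. For PDGFRB the medians were 0.00723 on the microbrush (n = 9) and 0.00478 in aorta, and for CSPG4 0.0164 (n = 9) and 0.0134. WFDC1 had 0.00157 on the microbrush (n = 7) and 0.00101 in aorta. The ranges of PDGFRB, CSPG4 and WFDC1 also overlapped between microbrush and aorta.

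The comparison of aorta with blood used no microbrush or wire library, but its direction could be foreseen for mural genes. All 17 measured contractile genes were also higher in aorta. The 7 genes were chosen with earlier results of these data known, so their calls are no support for that choice. All 7 genes were tested and all 7 were higher in aorta by edgeR's quasi-likelihood test at a Benjamini-Hochberg adjusted p under 0.05 over 17082 genes, where 9.82% of genes were called higher and 28.5% in either direction. The log2 fold change was 7.10 for ITGA7 (SE 0.77, adjusted p = 7.3e-18) and 6.39 for RGS5 (SE 0.89, adjusted p = 2.6e-11). PDGFRB (4.42, SE 0.61), CSPG4 (4.41, SE 0.71) and WFDC1 (4.63, SE 0.70) followed with adjusted p-values from 2.85e-11 to 9.93e-09 by edgeR. NOTCH3 had the smallest change at 1.85 (SE 0.54, edgeR adjusted p = 0.00355), next to FIBIN at 2.10 (SE 0.67, adjusted p = 0.00811). Every aorta library lay above every blood library for all 7 genes, as it did for 23.5% of 18481 genes. Without blood 1, which leaves 1 blood library assumed to vary like the aorta libraries, the calls of NOTCH3 (edgeR adjusted p = 0.0987) and FIBIN (adjusted p = 0.128) ended. With blood 2 added, ITGA7 and WFDC1 passed and the other 5 did not (edgeR adjusted p from 0.151 to 0.694). Aorta and blood came from different pigs, so tissue and pig cannot be told apart.

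The labelled tissues carried their defining markers. MYH11 had between 17770 and 37400 CPM in aorta and 5.18 and 8.63 CPM in blood, and HBB, the beta chain of haemoglobin, had 6.30 to 28.1 CPM in aorta and 26280 and 39440 CPM in blood.

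Other genes of the same pathways were read from lists chosen with earlier results of these data known. Of 6 PDGF ligands and receptors, 3 were higher in aorta than in blood and none lower, with a median log2 fold change of 1.46 against 0.15 over all genes. These were the fibroblast receptor PDGFRA (2.96, edgeR adjusted p = 6.89e-05), PDGFD (1.60) and PDGFC (1.35), whereas PDGFB, the ligand of PDGFRB, did not pass (0.78, adjusted p = 0.353). On the devices PDGFB averaged 6.74 ± 5.23 CPM on the microbrush and 19.9 ± 12.6 CPM on the wire. PDGFRA, another receptor, averaged 5.19 ± 7.50 CPM on the microbrush and 2.60 ± 3.01 CPM on the wire (SD, n = 10 and 4). PDGFA averaged 19.0 ± 13.4 CPM on the microbrush and 17.0 ± 6.87 CPM on the wire.

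Of 10 measured Notch ligands, receptors and targets, 3 were higher and 1 was lower in aorta than in blood (median 0.55). The ligand JAG1 (2.86, edgeR adjusted p = 2.7e-05) and the targets HEY2 (2.61) and HEYL (2.62) were higher, and NOTCH2 was lower (-1.63, adjusted p = 0.0116). HEYL, a target of NOTCH3 in mural cells, had a median of 5.97 CPM (0 to 29.7) on the microbrush and 0, 0, 0 and 0.506 CPM on wires 1 to 4. Among the other targets, HEY2 averaged 71.1 CPM on the microbrush and 14.9 CPM on the wire. HEY1 averaged 21.8 and 14.4 CPM, and HES1 10.2 and 9.55 CPM. Of the 10 Notch genes 7 had a positive microbrush minus wire difference, with a median of 0.38 against 0.37 over 17986 genes. JAG1 averaged 228.4 ± 214.4 CPM on the microbrush and 57.7 ± 54.2 CPM on the wire. The receptor NOTCH4 of endothelial cells averaged 14.7 ± 15.8 CPM on the microbrush and 33.8 ± 36.5 CPM on the wire. NOTCH2 averaged 208.2 ± 101.2 CPM on the microbrush and 304.8 ± 242.7 CPM on the wire, and the ranges of both receptors overlapped between the devices.

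Of 14 laminin, integrin and related genes, 11 were higher and 1, ITGA6, was lower in aorta than in blood (median 2.64). Those higher include LAMA5 (7.18, edgeR adjusted p = 1.05e-14) and LAMB2 (5.02, adjusted p = 7.78e-11). LAMA5 averaged 558.9 ± 515.1 CPM on the microbrush and 101.4 ± 82.0 CPM on the wire, while ITGB1 did not pass between aorta and blood (0.37, adjusted p = 0.669). Of 7 relatives of RGS5 in the R4 family none was higher and 1 was lower in aorta, namely RGS18 of platelets (-2.85, adjusted p = 6.08e-10). RGS18 averaged 623.1 ± 1217 CPM on the microbrush and 902.7 ± 963.8 CPM on the wire, with overlapping ranges.

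A wider list of 20 pericyte and mural genes had 7 higher and 2 lower in aorta than in blood (median 1.07). MCAM (3.97, edgeR adjusted p = 2.02e-07) and PLXDC1 (4.94, adjusted p = 9.5e-11) were among those higher, and STEAP4 (-2.86) and FOXS1 (-1.72) were those lower. All 17 contractile genes were higher (median 4.08), and so were 11 of 12 tested fibroblast genes (median 2.86). Among 12 endothelial genes 1 was higher and 1 lower, among 8 of skeletal and heart muscle 1 and 1, and among 7 of glia 0 and 1. None of 6 red cell, 9 white cell and 6 platelet genes was higher, and 6, 8 and 4 of them were lower, while 10 genes of hepatocytes and kidney tubules held no call.

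No difference between kidney and liver microbrush libraries passed the test for any of the 7 genes. In kidney PDGFRB had 98.4, 112.9, 21.97, 348.1 and 24.2 CPM (microbrush 1, 2, 3, 5 and 10), against 0, 14.2, 124.6, 9.16 and 242.6 CPM in liver (microbrush 4, 6, 7, 8 and 9). In kidney RGS5 had 877.8, 573.9, 67.8, 1679 and 40.4 CPM in the same order, against 0, 3.76, 361.1, 30.9 and 1209 CPM in liver. The organs overlapped for each of these genes. The edgeR log2 fold change, kidney over liver, was 0.75 (SE 1.11) for PDGFRB and 1.16 (SE 1.30) for RGS5, each with adjusted p = 1. For the others it ran from -0.17 (SE 1.23, WFDC1) to 0.67 (SE 1.17, NOTCH3), and the median of the 7 was 0.49 against 0.50 over all genes. Of 15013 genes 0 (0%) passed edgeR at an adjusted p under 0.05, 238 had an unadjusted p under 0.05, and DESeq2 called 66. None of the 66 was among the 7, of which 4 had an adjusted p by DESeq2. Standard errors above 1 on the log2 scale limit what could be detected among these libraries. Without microbrush 4 and 6 the fold changes of CSPG4 (-0.61), NOTCH3 (-0.04), ITGA7 (-0.45) and FIBIN (-0.26) took the other sign.

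Between pigs, too, no difference of the 7 genes passed the test. PDGFRB averaged 50.8 ± 56.7 CPM in the microbrush libraries of pig 248K and 148.4 ± 144.4 CPM in those of pig 243K (SD, n = 5 each). NOTCH3 averaged 284.5 ± 306.9 CPM in pig 248K and 594.4 ± 590.0 CPM in pig 243K. All 7 fold changes, pig 248K over pig 243K, were negative, from -0.37 (SE 1.24, WFDC1) to -1.47 (SE 1.13, PDGFRB), and each had an edgeR adjusted p of 1. Of 15013 genes 0 (0%) passed edgeR, 39 had an unadjusted p under 0.05 and DESeq2 called 1. On the wire, NOTCH3 had 1.69 and 3.44 CPM in pig 248K, against 106.4 and 45.0 CPM in pig 243K. PDGFRB had no read on the wires of pig 248K, against 0.508 and 5.06 CPM on those of pig 243K. Wires 2 and 3, those of pig 248K, also had counts for 9715 and 10169 genes, against 15702 and 18306 in wires 1 and 4.

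The microbrush minus wire difference was not shown to differ between the organs. In the interaction fit the log2 term, kidney over liver, ran from -3.44 (SE 2.63, FIBIN) to 2 (SE 3.09, RGS5), and each of the 7 had an edgeR adjusted p of 1. Of 17809 genes 0 (0%) passed edgeR, 525 had an unadjusted p under 0.05 and DESeq2 called 2. With 2 wire libraries per organ, each from another pig, leaving out a wire library, which leaves a lone one assumed to vary like the rest, turned the sign of the term for 6 of the 7 genes. Leaving out microbrush 9 turned it for CSPG4 and ITGA7.

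**Figure D4:**
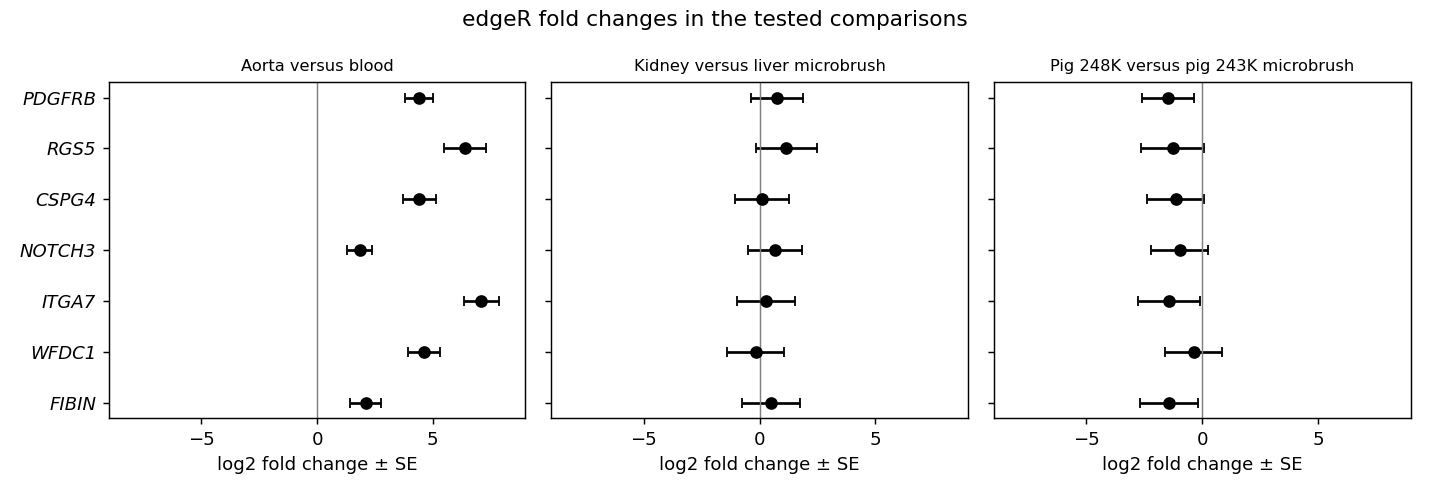
edgeR log2 fold change ± SE (horizontal axis) of each gene (rows) for aorta over blood, kidney over liver microbrush and pig 248K over pig 243K microbrush. All 7 genes lie above 0 in aorta over blood, from 1.85 (NOTCH3) to 7.10 (ITGA7), while in both splits of the microbrush libraries they lie between -1.47 and 1.16.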

How the data were processed

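RNA came from the RNAdvance Tissue kit at smaller reagent volumes, and SMARTer Pico libraries followed, per the labels' protocols. The submitters' processing notes name Salmon, DESeq2 and Sscrofa11.1; versions and the annotation release are not given in the sources used here. The deposited values are estimated counts per Ensembl gene, not scaled between libraries, and 11.9% were not whole; counts were rounded. Symbols came from a supplied list (14692 of 24358 genes) and positions from RefSeq's table of Sscrofa11.1, matched by symbol.

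Levels are CPM after TMM over the 20 libraries with at least 100000 counts, and differences use log2(CPM + 1), which understates changes of low genes. Tests were edgeR 4.0.16 (R 4.3.3; quasi-likelihood, robust, filterByExpr minimum count 10, TMM within the comparison), adjusted by Benjamini-Hochberg over all genes. DESeq2 1.42.0 was an alternative, beside RLE scaling, other filters and pseudocounts, and libraries left out. The fits were also run on simulated counts drawn from a single pooled profile per comparison, and no result here rests on that run. Groups, organs and pigs came from the labels, and replicates were numbered in accession order. The pairs within a group held no identical columns. The members and lists were chosen with earlier results of these data known. Named genes were the members, all PDGF and Notch genes listed, ITGB1, up to 4 genes per other list by microbrush CPM, and the 10 genes most like the members; HBB and MYH11 also served as tissue markers.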

Additional observations from a re-analysis of the deposited data

Results flagged for a closer look

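Among 21 sets of libraries (7 genes in the microbrush, wire and aorta groups), 4 held a library far from the others on the log2(CPM + 1) scale. Chance flags about 1 in 20 sets of normally spread values. That rate does not hold for values at 0, and the 7 genes vary together. NOTCH3 had 0 CPM in microbrush 4, far below the other 9 microbrush libraries; microbrush 4 had counts for 3831 genes. NOTCH3 had 200 CPM in aorta 4, above the 108.7 to 118.6 CPM of the other aorta libraries. On wire 4, WFDC1 had 0.506 CPM and FIBIN 1.01 CPM, while the other 3 wires had none, so any read on wire 4 would have been flagged. The wire 4 values rest on 1 and 2 reads, below the limit of 3 counts that a count of 0 allows.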

How the results depend on the processing

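The count of genes called between aorta and blood was 4875 and ran from 2488 (without blood 1) to 6990 (without blood 3) when a library was left out; with blood 2 it was 239. Its other alternatives, and those of the medians over the 7 genes, stayed within 1.5 times the count or within the SD of the libraries. Leaving out a library gave a median of 3.37 to 4.12 for microbrush minus wire, -1.83 to -0.78 for microbrush minus aorta, 2.4 to 3.48 for microbrush minus blood and -1.01 to -0.3 for wire minus blood, and a NOTCH3 to RGS5 log2 ratio difference of 3.28 to 3.92. Leaving out microbrush libraries in these and in the interaction was added after seeing the data. The end of -0.78 was without microbrush 4, and the NOTCH3 difference from aorta ran from -0.13 to 1.03. Between kidney and liver, 1 gene was called with no filter and 66 by DESeq2; DESeq2 called 1 between pigs and 2 in the interaction. The cause was not tested. With the pig as a replicate block 0 genes were called between organs or in the interaction, as without it, and leaving out each library in turn gave 0 in each of these comparisons and between pigs. The labels number no replicates, so no other pairing was possible. Fold changes that did not pass turned sign in places. For kidney over liver, leaving out a library gave -0.6 to 1.24 for CSPG4, -0.7 to 1.76 for ITGA7, -0.69 to 0.47 for WFDC1, -0.12 to 1.78 for PDGFRB and -0.03 to 1.6 for NOTCH3. A minimum count of 50 gave 0.00 for CSPG4, and without microbrush 4 and 6, chosen after seeing the data, CSPG4 had -0.61, NOTCH3 -0.04, ITGA7 -0.45 and FIBIN -0.26. For pig 248K over 243K WFDC1 ran from -1.48 to 0.18. In the interaction, leaving out a library gave -2.33 to 4.32 for RGS5, -2.38 to 5.55 for NOTCH3, -6 to 0.59 for CSPG4, -5.68 to 0.66 for ITGA7, -5.36 to 3.56 for PDGFRB and -4.47 to 0.39 for FIBIN. RLE scaling moved the median of all genes from 0.50 to 0.83 for kidney over liver and from -0.13 to 0.08 for pig 248K over 243K. It turned no sign of the 7 genes in the tested comparisons. Low read numbers limit WFDC1, FIBIN, ITGA7 and PDGFRB most, whose wire levels rest on 0 to 10 reads. Wire 3 had 0 reads of each of these genes among 11128400 counts.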
